A study of Homo sapiens with 5 samples.

Results

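Rh41 is an established cell line from a fusion-positive alveolar rhabdomyosarcoma, a childhood tumour of cells with skeletal muscle features. The members described here are 50 genes of the ATF4 pathway and the unfolded protein response, picked by name from the 43714 gene rows of each library's unstranded read count table. All 50 names were found. They fall into 11 factors and effectors of the ATF4 arm, 16 ATF4-linked amino acid genes, 4 sensor genes of the endoplasmic reticulum (ER), and 19 ER chaperones and degradation genes. The amino acid genes comprise 6 of amino acid and one-carbon synthesis, 5 transporters and 5 tRNA synthetases. The ER genes comprise 15 chaperones and folding enzymes and 4 of ER-associated degradation. The libraries came from Rh41 cells 48 h after transfection, by RNAiMAX, of a scrambled siRNA (2 libraries, replicates 1 and 3) or of an siRNA against H3F3A (3 libraries, replicates 1, 2 and 3). H3F3A, listed under its current symbol H3-3A, encodes the histone variant H3.3, and the comparison asks what its knockdown did to these transcripts. Both groups are 1 cell line and 1 siRNA each, and nothing in the labels says that the replicates were separate cultures. The p-values therefore measure the spread between libraries, which may be technical.

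The unfolded protein response senses misfolded protein in the ER through the membrane proteins PERK (EIF2AK3), IRE1 (ERN1) and ATF6. PERK, like other eIF2alpha kinases, lowers general translation while favouring that of ATF4, a transcription factor that acts on genes of amino acid synthesis, amino acid import and tRNA charging and on stress effectors such as DDIT3 and TRIB3. IRE1 splices the XBP1 messenger, and XBP1 and cleaved ATF6 act on genes of ER chaperones and of ER-associated degradation. ATF4 and ATF6 are controlled largely at the level of protein, which transcript counts do not measure.

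The stretch from 250 bases before to 50 after the start of a gene was searched for elements that these factors bind. Windows from RefSeq (GRCh38.p14) were found for 46 of the 50 members, all but SHMT2, SLC7A11, PSPH and PDIA3 and both strands were read. The ER stress element, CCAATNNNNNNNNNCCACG, bound by NF-Y with ATF6 or XBP1, lay in 7 of these 46 members: CALR, CANX, CRELD2, HSP90B1, HSPA5, PDIA6 and XBP1. Of all 27305 genes with a window, 0.0916% had it (0.0769% of 35116 windows). The C/EBP-ATF element, TGATGNAA, a site of ATF4 dimers, lay in 10 of 46 members against 4.46% of all genes (3.62% of windows). By class, the C/EBP-ATF element was in 7 of 13 amino acid genes (AARS1, ASNS, CARS1, GARS1, SLC1A5, SLC3A2 and SLC7A1) and in 1 of 18 ER genes, HERPUD1. The ER stress element was in 6 of 18 ER genes. The element TGACGTG, linked to XBP1 and ATF6, was found for CARS1 and HYOU1, against 2.40% of all genes (1.97% of windows). The short motif CCACG is part of the full ER stress element and so common, in 42.1% of genes and 38.1% of windows, that a match says little.

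The windows below belong to the 3 members that passed the test both with and without a correction for GC content, PDIA6, PDIA4 and SLC7A5, and to HSPA5. Capitals mark the ER stress element or CCACG alone, on either strand. PDIA6 is shown at chr2:10812736-10813035, PDIA4 at chr7:149028441-149028740, HSPA5 at chr9:125241294-125241593 and SLC7A5 at chr16:87869458-87869757, all GRCh38.p14 on the minus strand and printed 5′ to 3′ along the gene. PDIA6 and PDIA4 each have another RefSeq window that is not printed, which held no full ER stress element. The printed windows of PDIA4 and SLC7A5 held only CCACG.
PDIA6: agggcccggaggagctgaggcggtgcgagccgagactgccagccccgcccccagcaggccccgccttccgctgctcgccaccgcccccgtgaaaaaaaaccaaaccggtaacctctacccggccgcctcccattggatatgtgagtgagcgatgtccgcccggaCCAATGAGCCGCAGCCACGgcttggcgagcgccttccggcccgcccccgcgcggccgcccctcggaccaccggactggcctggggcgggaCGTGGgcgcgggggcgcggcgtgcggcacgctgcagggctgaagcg
HSPA5: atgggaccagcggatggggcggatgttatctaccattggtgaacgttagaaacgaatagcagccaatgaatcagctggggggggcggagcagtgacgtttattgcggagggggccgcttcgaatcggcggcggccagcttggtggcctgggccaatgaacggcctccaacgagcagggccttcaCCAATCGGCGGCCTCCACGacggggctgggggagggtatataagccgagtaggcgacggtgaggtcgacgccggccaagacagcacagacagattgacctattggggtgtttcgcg
PDIA4: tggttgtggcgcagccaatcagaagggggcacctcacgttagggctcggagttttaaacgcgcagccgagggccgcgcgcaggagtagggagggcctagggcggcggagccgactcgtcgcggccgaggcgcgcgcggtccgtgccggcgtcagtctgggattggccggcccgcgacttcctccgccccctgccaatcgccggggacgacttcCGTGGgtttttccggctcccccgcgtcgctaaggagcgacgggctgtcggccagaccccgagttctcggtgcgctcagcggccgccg
SLC7A5: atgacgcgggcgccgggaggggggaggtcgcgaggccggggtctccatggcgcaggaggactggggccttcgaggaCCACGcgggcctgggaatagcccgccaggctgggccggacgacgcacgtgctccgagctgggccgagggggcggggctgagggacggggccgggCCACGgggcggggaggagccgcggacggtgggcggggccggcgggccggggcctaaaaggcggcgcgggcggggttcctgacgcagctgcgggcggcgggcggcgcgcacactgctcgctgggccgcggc
A full element was present in the windows of PDIA6 and HSPA5, whose counts are given below with those of PDIA4 and SLC7A5. A match in a window is a description of the sequence and no evidence of binding in these cells.

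Between 28493573 and 30705963 reads were assigned to genes per library. H3-3A stood at 293.9 and 268.9 CPM (reads per 1000000 assigned reads, with library sizes scaled by TMM) in scrambled replicates 1 and 3, and at 9.38, 10.5 and 8.54 CPM in H3F3A siRNA replicates 1 to 3. This 29.7-fold lower level (edgeR quasi-likelihood test, Benjamini-Hochberg adjusted p = 9.04e-21 over 15859 genes tested) goes with the labels. H3-3B, which encodes the same protein, lay at 838.9 and 802.7 CPM against 819, 790.7 and 846.6 CPM, so that the groups overlapped (log2 fold change -0.00, adjusted p = 0.988). The sign for H3-3B changed with the scaling and is not a direction. Of the 7 rhabdomyosarcoma markers checked, 6 were well expressed, with a summed level of 4200 to 5100 CPM in the scrambled and 3660 to 3740 CPM in the H3F3A siRNA libraries, and CDH3 did not reach 1 CPM. Single markers went both ways. FGFR4 fell (log2 fold change -0.50, and -0.29 with GC correction) and TFAP2B rose (0.49 and 0.48). MYOD1 (-0.29 and -0.05) and DES (-0.31 and -0.11) did not pass. With correction and without scrambled replicate 1 the log2 fold change was -0.27 for FGFR4 and 0.49 for TFAP2B. Summed immune markers stayed between 3.5 and 3.95 CPM, epithelial markers between 5.34 and 6.79 CPM, and endothelial markers between 2.07 and 2.93 CPM. The 4 fibroblast markers summed to 44.7 CPM in both scrambled libraries and to 34.1 to 37.0 CPM with H3F3A siRNA, nearly all of it PDGFRB, and the part of these marker shifts in the results was not tested. In bulk RNA, fewer cells of a kind and less RNA per cell cannot be told apart.

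Counts followed gene GC content differently in scrambled replicate 1 than elsewhere. Set against the mean library, log2 CPM there rose by 0.144 per 10 percentage points of GC, against slopes of -0.01 in scrambled replicate 3 and -0.06, -0.04 and -0.04 in H3F3A siRNA replicates 1, 2 and 3. Across genes, the log2 fold change had a rank correlation of -0.518 with GC content as scaled by TMM and of 0.0021 after each library's trend over GC was removed. This bears on the members because their classes differ in GC content: the median was 58.5% for factors and effectors, 51.8% for amino acid genes, 45.8% for ER chaperones and degradation genes and 43.0% for sensors, with 48.6% over all genes tested. Log2 fold changes of members are therefore given without and with this GC correction, and genes that passed the test also with the correction and without scrambled replicate 1. That last fit leaves 1 scrambled library, which is assumed to vary like the others.

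Most members sat slightly lower with H3F3A siRNA, and 4 of the 49 tested passed the threshold of adjusted p under 0.05. SESN2, a leucine sensor, had 0 to 2 reads per library and was not tested. Those that fell were the amino acid transporter gene SLC7A5 and the ER folding genes PDIA6, PDIA4 and SDF2L1. No member rose (edgeR quasi-likelihood test, 0 of 49 at an unadjusted p under 0.05, and 0 by DESeq2). Over all genes tested, 2.69% fell and 0.504% rose. With GC correction SLC7A5, PDIA6, PDIA4 and the chaperone gene HSPA5 fell and none rose (1 of 49 at an unadjusted p under 0.05), against 1.23% lower and 0.523% higher over all genes. With the correction and without scrambled replicate 1, SLC7A5 and PDIA6 remained, against 0.348% of all genes lower. DESeq2 without correction called 6 members lower, where it called 4.41% of the 10746 genes to which it gave an adjusted p. At an unadjusted p under 0.05, 13 of 49 members were lower against 10.9% of all genes, and with GC correction 15 of 49 against 6.80%. The members were chosen with earlier results of these data known. These shares and those that follow therefore describe the members and do not test them as a set.

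The shift of the members was small. The median log2 fold change of the 49 was -0.11 (-0.09 with GC correction), beside 0.01 over all genes tested (0.01 with correction). Of the members, 42 lay below 0 (85.7%), and 41 (83.7%) after correction, against 48.6% and 48.0% of all genes. In 22 members all 3 H3F3A siRNA libraries were below both scrambled libraries, against 17.1% of all genes. With correction the count was again 22 (14.8% of all genes). In both counts were 18 of the 49 members, and 1716 of the 15859 genes tested. The reverse order was seen for 1 member, VLDLR, and with correction for 2, ATF5 and DDIT4, against 16.0% of all genes (14.6% with correction).

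**Figure D1:**
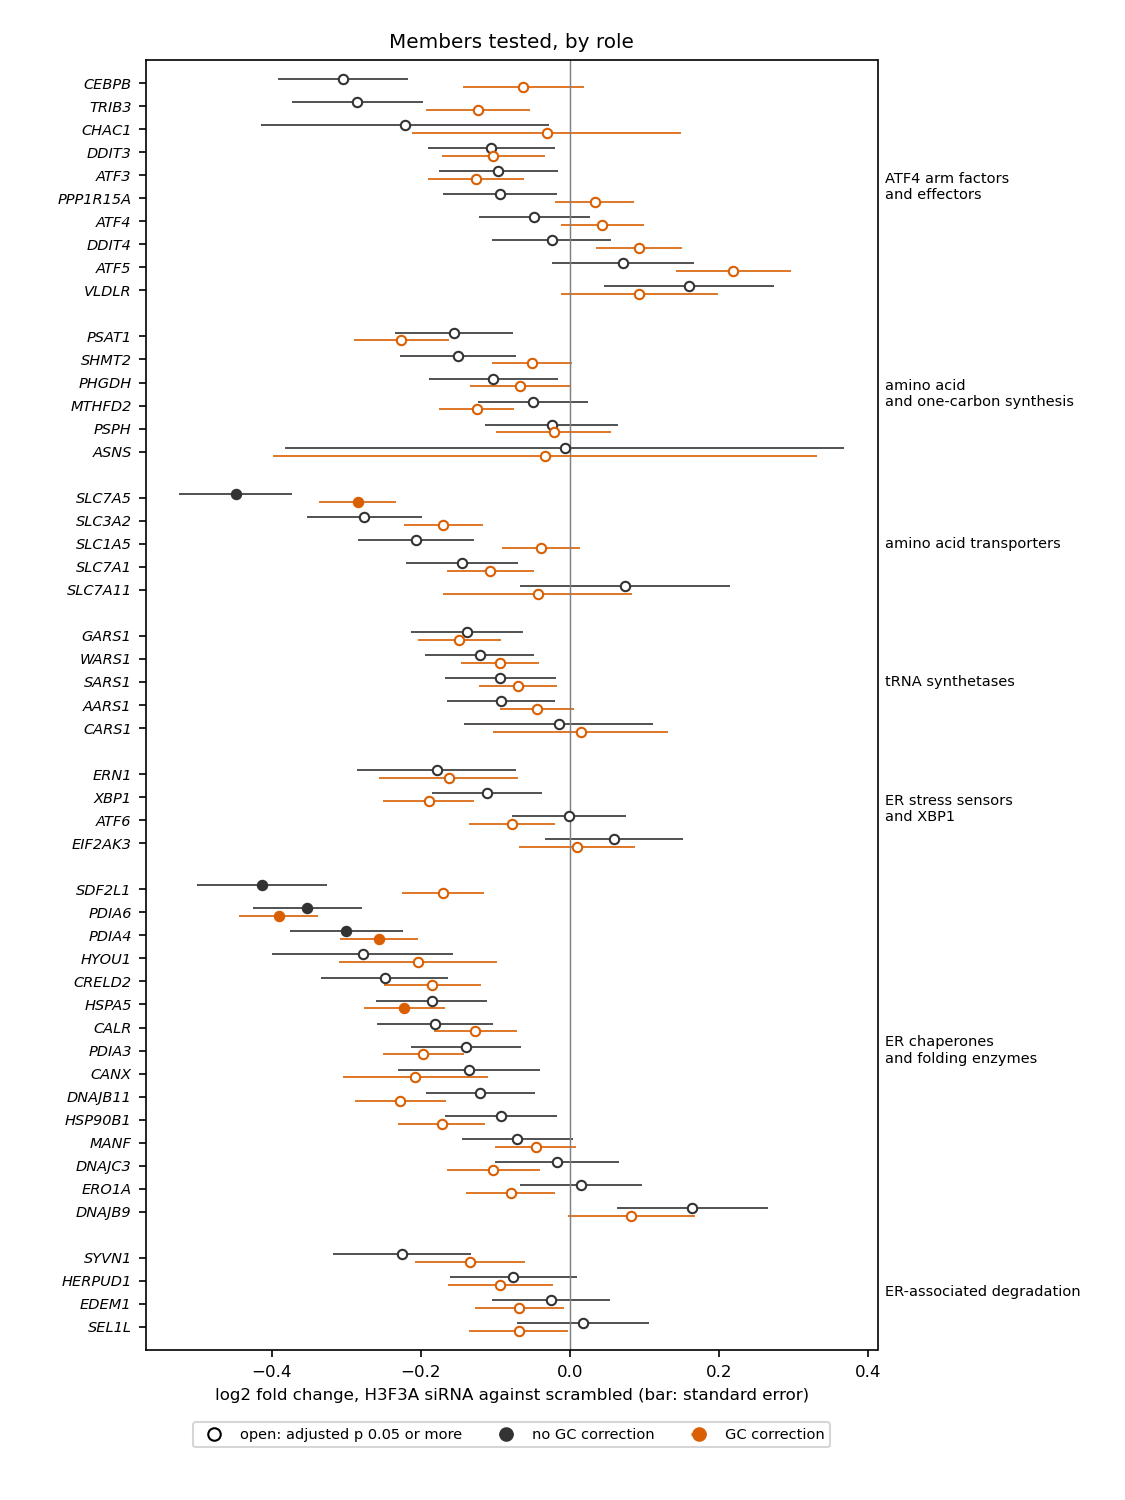
Log2 fold change of the 49 tested members, H3F3A siRNA over scrambled siRNA, grouped by role, without and with GC correction; each pair of points is 1 gene, bars are standard errors and filled points passed the test. The members range from -0.45 to 0.16 without and from -0.39 to 0.22 with correction, and most lie below 0.

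ATF4 itself, the transcription factor at the head of the amino acid arm, was at 429.5 and 413.8 CPM in the scrambled and at 417.4, 391.9 and 414.3 CPM in the H3F3A siRNA libraries. The groups overlapped, and the log2 fold change was -0.05 ± 0.07 (SE, adjusted p = 0.802), or 0.04 with GC correction (adjusted p = 0.818), so the sign is not settled. DDIT3, which encodes the stress factor CHOP, read 40.4 and 36.2 CPM against 36.8, 33.4 and 36.8 CPM, also overlapping (log2 fold change -0.11, adjusted p = 0.569, and -0.10 with correction). In the GENCODE annotation, other genes on either strand cover 39.6% of the exon bases of DDIT3. Its level is uncertain, since reads were set aside wherever the counting found more than 1 gene (4.45% to 4.56% of reads per library). The counts may rest on another annotation, so the share set aside for a gene is not known. The same limit holds for DDIT4 (41.2% covered), MTHFD2 (33.2%), SLC1A5 (23.8%), ATF5 (23.7%) and DNAJB11 (23.2%), among others.

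None of the 10 tested factors and effectors passed the test with or without correction (edgeR; 2 lower and 0 higher at an unadjusted p under 0.05, 0 lower and 1 higher with correction, 0 by DESeq2). CEBPB, a partner of ATF4 in dimers, stood at 30.8 and 29.7 CPM against 23.7, 26.5 and 23.3 CPM. Its groups did not overlap, but its log2 fold change of -0.30 (adjusted p = 0.0569) shrank to -0.06 (adjusted p = 0.820) with correction, and the corrected groups overlapped. TRIB3, a pseudokinase that dampens ATF4 signalling, was at 33.5 and 29.5 CPM against 27.3, 24.9 and 25.4 CPM, giving log2 fold changes of -0.29 (adjusted p = 0.0789) without and -0.12 (adjusted p = 0.506) with correction. CHAC1, a glutathione-degrading enzyme, was low, at 1.98 to 2.81 CPM in all libraries, and its groups overlapped (log2 fold change -0.22, and -0.03 with correction). The remaining factors and effectors lay between: the stress factor ATF3 at -0.10 (-0.13 with correction), the phosphatase subunit PPP1R15A (GADD34), which reverses eIF2alpha phosphorylation, at -0.09 (0.03) and the mTORC1 inhibitor DDIT4 at -0.02 (0.09), both of which changed sign. ATF5, a factor related to ATF4, was at 0.07 (0.22 with correction, adjusted p = 0.183), and the lipoprotein receptor VLDLR at 0.16 (0.09 with correction). CEBPB, TRIB3 and CHAC1 have GC contents of 60.9% to 66.2%, where scrambled replicate 1 was raised. Without that library their log2 fold changes were -0.28, -0.19 and -0.09 uncorrected, and -0.18, -0.14 and -0.02 with correction. The part of GC content in these values was not tested. The class median was -0.10 without and 0.00 with correction, and 5 of 10 members were below 0 after it.

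**Figure D2:**
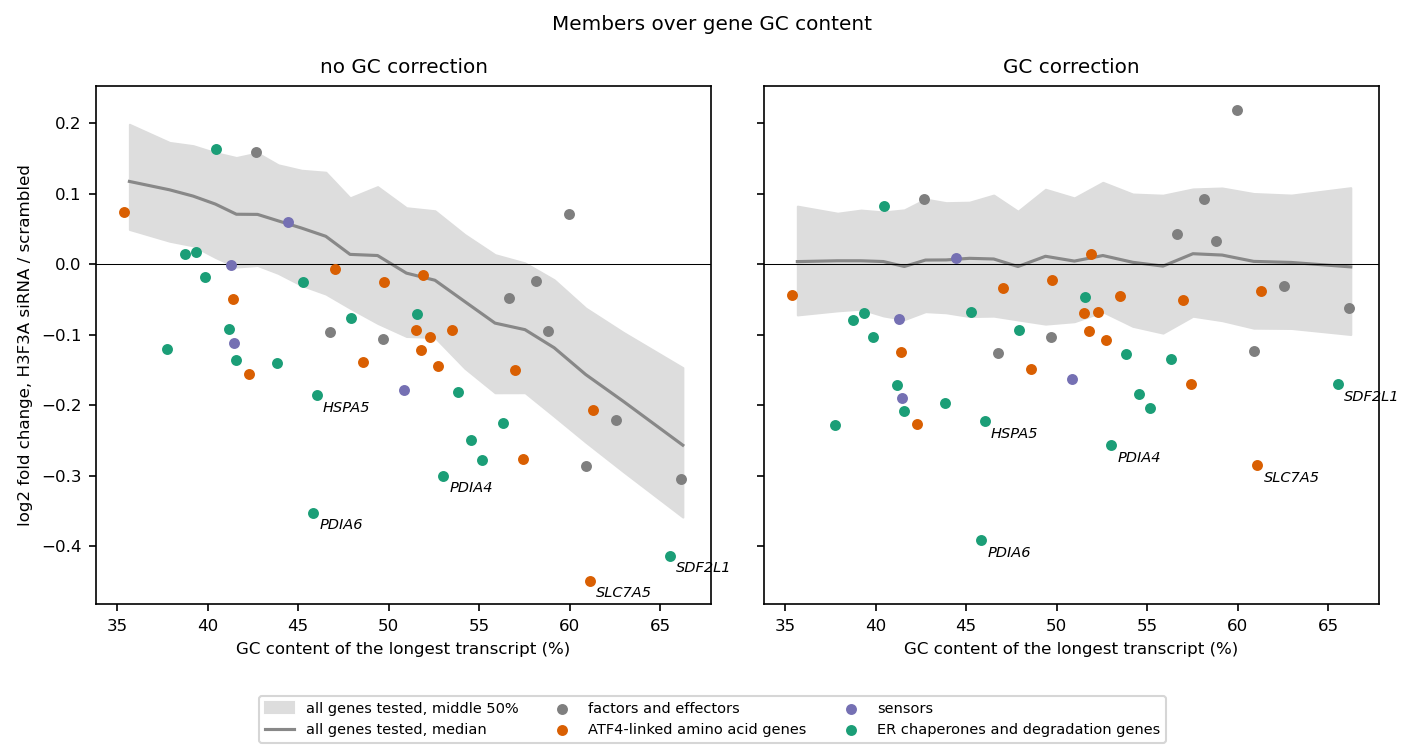
Log2 fold change of each member over the GC content of its longest transcript (%), without (left) and with (right) GC correction; the line and band are the median and middle 50% of all genes tested. Without correction the trend of all genes falls with GC content, while with correction it is flat. PDIA6, SLC7A5, PDIA4 and HSPA5, which passed with correction, then lie below it, and SDF2L1 is nearer to 0. DNAJB11 and PSAT1, which did not pass, lie as low as HSPA5 (log2 fold changes -0.23, -0.23 and -0.22).

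Among the ATF4-linked amino acid genes, the largest difference, without and with GC correction, was that of the transporter gene SLC7A5. Over all members this held only without correction. With it PDIA6 differed more (log2 fold change -0.39 against -0.28 for SLC7A5). SLC7A5 encodes LAT1, the light chain of a transporter for leucine and other large neutral amino acids. It read 288.9 and 260.2 CPM in the scrambled libraries and 196.4, 207.2 and 199.9 CPM with H3F3A siRNA, a mean of 274.6 ± 20.3 (SD, n = 2) against 201.2 ± 5.53 (SD, n = 3). The groups were well apart. SLC7A5 fell 1.37-fold (log2 fold change -0.45 ± 0.08 SE, edgeR adjusted p = 0.00246). With GC correction its values were 250.7 and 261.5 against 207.5, 215.2 and 207.9 CPM, and it fell 1.22-fold (adjusted p = 0.00765). With the correction and without scrambled replicate 1 the log2 fold change was -0.32 (adjusted p = 0.0407).

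SLC3A2 encodes the heavy chain, 4F2hc, that pairs with LAT1 at the membrane. Its level was 159.7 and 141.6 CPM against 128.1, 119.6 and 125.6 CPM, again without overlap. The log2 fold change of -0.28 just missed the threshold (edgeR adjusted p = 0.0503) and was -0.17 with correction (adjusted p = 0.127), while DESeq2 called it without correction. SLC1A5, the glutamine transporter ASCT2, stood at 585.9 and 513.2 CPM against 482.3, 472.6 and 473.6 CPM. Its log2 fold change of -0.21 (adjusted p = 0.158) was -0.04 (adjusted p = 0.834) with correction, after which the groups overlapped. Both are GC-rich, at 57.4% and 61.3%. The remaining 2 transporters were SLC7A1, for cationic amino acids (log2 fold change -0.14, and -0.11 with correction), and SLC7A11, the cystine importer (0.07, and -0.04 with correction). Neither passed the test.

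No gene of amino acid and one-carbon synthesis passed the test (edgeR; 0 of 6 at an unadjusted p under 0.05, 2 lower with correction, 0 by DESeq2). PSAT1, the aminotransferase of serine synthesis, was at 48.8 and 47.1 CPM against 44.5, 43.5 and 41.1 CPM, without overlap. The log2 fold change of PSAT1 was -0.16 (adjusted p = 0.328), and -0.23 with correction (adjusted p = 0.0925). SHMT2, the mitochondrial serine hydroxymethyltransferase, was at 540 and 475.1 CPM against 466, 440.8 and 465.5 CPM, a log2 fold change of -0.15 that was -0.05 with correction. PHGDH, the first enzyme of serine synthesis, overlapped between groups: 93.3 and 74.2 CPM against 78.8, 76.8 and 78.4 CPM. Its 2 scrambled libraries differed from each other by more than the groups did, and the log2 fold change of -0.10 (-0.07 with correction) turned positive without scrambled replicate 1 (0.07). MTHFD2, of mitochondrial folate metabolism, gave -0.05 (-0.12 with correction) and PSPH, which makes the last step to serine, -0.02 (-0.02 with correction). ASNS, asparagine synthetase and a classical ATF4 target, had only 14 to 19 reads per library (log2 fold change -0.01, and -0.03 with correction). Its annotated exons are covered to 44.6% by another gene, and reads over shared exons may be set aside, so its level is uncertain.

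The 5 tRNA synthetase genes, which charge tRNAs with amino acids, all had log2 fold changes below 0, from -0.14 to -0.02, or from -0.15 to 0.01 with correction (4 of 5 below 0), and none passed the test (edgeR; 0 of 5 at an unadjusted p under 0.05, 1 lower with correction, 0 by DESeq2). GARS1, for glycine, was at 130.4 and 129.3 CPM against 125.3, 113.9 and 114.9 CPM (log2 fold change -0.14, and -0.15 with correction). WARS1, for tryptophan, was at 151.2 and 145.9 CPM against 140.2, 131.3 and 138.2 CPM (-0.12 and -0.09). SARS1, for serine, was at 201.5 and 183.4 CPM against 181.9, 181.9 and 177.3 CPM (-0.09 and -0.07). In each of the 3, every H3F3A siRNA library was below both scrambled ones, by a smaller margin than in SLC7A5. AARS1, for alanine, had the same order and log2 fold changes of -0.09 and -0.04. This order, in 4 of the 5 also with correction, was seen in 17.1% of all genes, and in 14.8% with correction. Among 13 further tRNA synthetase genes outside the members it was seen in 2, and in 4 with correction. CARS1 for cysteine was at 7.78 to 10.1 CPM with overlapping groups (-0.02 and 0.01), and has a second row in the tables for a numbered copy.

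In the 16 amino acid genes together, 1 fell and none rose, with or without correction (edgeR; 3 lower and 0 higher at an unadjusted p under 0.05, 5 and 0 with correction, and 2 and 0 called by DESeq2). The median log2 fold change was -0.11, which moved to -0.07 with GC correction and to -0.09 with correction and without scrambled replicate 1. In both fits 15 of 16 lay below 0. All 3 H3F3A siRNA libraries were below both scrambled libraries for 10 of the 16, and for 8 after correction, where 17.1% and 14.8% of all genes were. The 1 called of 16 stands beside 2.69% of all genes, and 1.23% with correction. At an unadjusted p under 0.05 in edgeR, 10.9% of all genes were lower, and 6.80% with correction. DESeq2 called lower 4.41% of the 10746 genes to which it gave an adjusted p.

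Among ER chaperones and folding enzymes 3 of 15 fell without and 3 with correction, and 1 with correction and without scrambled replicate 1, against 2.69%, 1.23% and 0.348% of all genes. PDIA6, a protein disulfide isomerase of the ER lumen, read 531.1 and 515.6 CPM in the scrambled libraries and 406.4, 408.4 and 414.9 CPM with H3F3A siRNA. The means were 523.3 ± 10.9 (SD, n = 2) and 409.9 ± 4.45 CPM (SD, n = 3), far apart relative to the spread. PDIA6 fell 1.28-fold (log2 fold change -0.35 ± 0.07 SE, adjusted p = 0.00948), and 1.31-fold with GC correction (adjusted p = 0.000702). With correction and without scrambled replicate 1 its log2 fold change was -0.35 (adjusted p = 0.0249). Its GC content of 45.8% lies near the middle of all genes. ATP6V1C2 covers 25.2% of the exon bases of PDIA6, but the ATP6V1C2 row held only 1.68 to 2.62 CPM.

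PDIA4, another disulfide isomerase of the ER, was at 715.4 and 650 CPM against 555.7, 552.1 and 556 CPM. The 3 H3F3A siRNA libraries were nearly equal and lay below both scrambled ones. PDIA4 fell 1.23-fold (edgeR adjusted p = 0.0304), and its log2 fold change was -0.26 with correction (adjusted p = 0.0176). With correction and without scrambled replicate 1 it was -0.23 and missed the threshold (adjusted p = 0.247).

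SDF2L1, a cofactor of the BiP chaperone cycle, and HSPA5, which encodes BiP, the main Hsp70 of the ER and a sensor regulator, passed in edgeR either without or with the correction, but not in both. SDF2L1 was at 78.0 and 62.2 CPM against 51.2, 53.6 and 53.1 CPM. It is among the most GC-rich members (65.5%), and its 1.33-fold fall (log2 fold change -0.41, adjusted p = 0.0109) shrank with correction to -0.17 on the log2 scale (adjusted p = 0.147), on values of 64.1 and 62.1 against 55.5, 56.4 and 56.4 CPM. The groups still did not overlap, and without scrambled replicate 1 the corrected value of SDF2L1 was -0.15 (adjusted p = 0.625). HSPA5 was at 1392 and 1380 CPM against 1216, 1229 and 1210 CPM, with little spread in either group. It missed the threshold without correction in edgeR (log2 fold change -0.19, adjusted p = 0.190), and passed in DESeq2 (adjusted p = 0.049). With GC correction HSPA5 fell 1.17-fold in edgeR (adjusted p = 0.0447). With correction and without scrambled replicate 1 the log2 fold change of HSPA5 was -0.20 (adjusted p = 0.398).

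**Figure D3:**
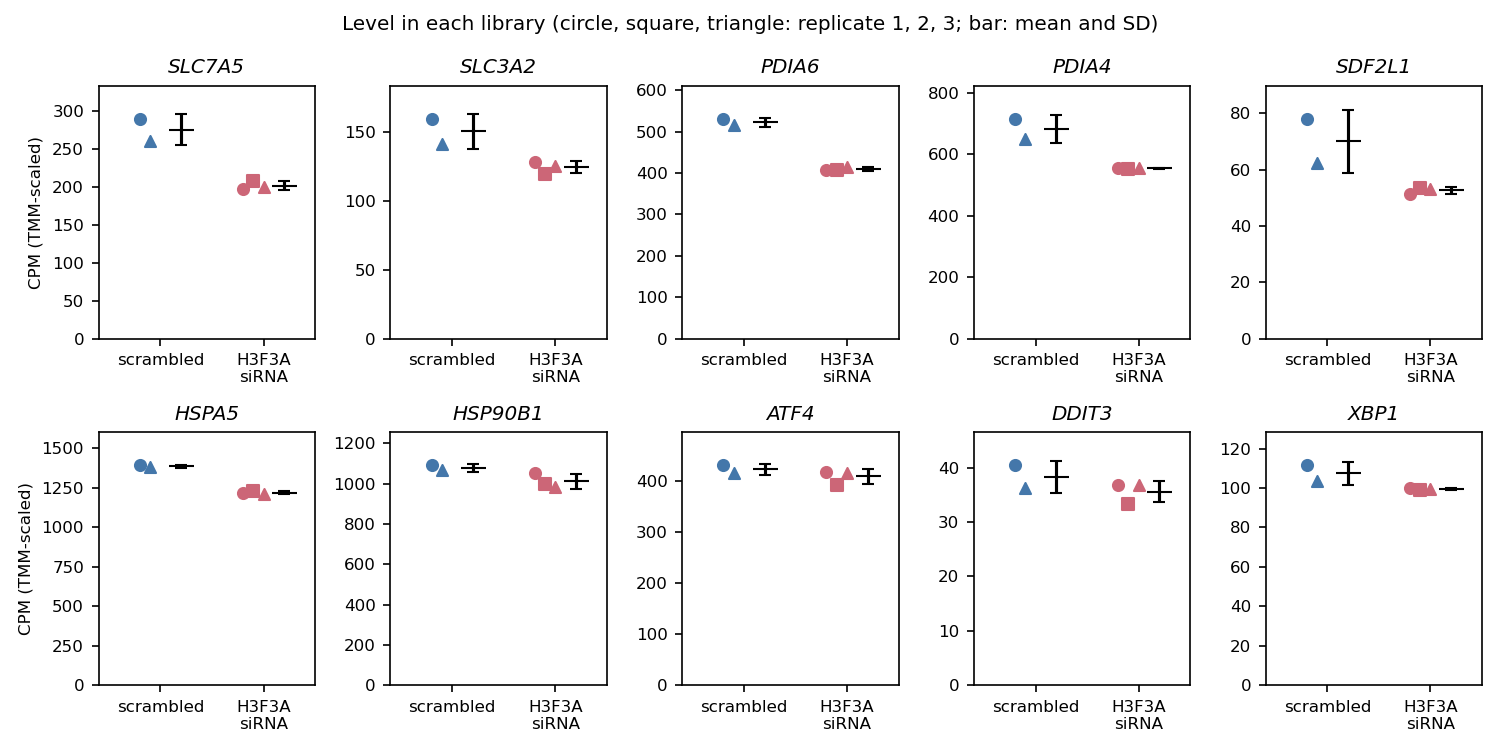
CPM of selected members in each of the 5 libraries, scrambled siRNA and H3F3A siRNA, on linear axes that start at 0; each point is 1 library, and the bars are the group mean and SD. The H3F3A siRNA libraries of SLC7A5, PDIA6, PDIA4, SDF2L1 and HSPA5 lie below both scrambled libraries, while those of ATF4 overlap them.

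Other chaperones did not pass. For PDIA3, the disulfide isomerase ERp57, the log2 fold change was -0.14 (-0.20 with correction, adjusted p = 0.0797), and for the co-chaperone DNAJB11 -0.12 (-0.23, adjusted p = 0.0690). Both are GC-poor, and in both the groups were apart. HSP90B1, which encodes GRP94, gave -0.09 and -0.17, and CALR, calreticulin, -0.18 and -0.13. CRELD2, a folding factor induced by ER stress, gave -0.25 and -0.18. DNAJB9, ERdj4, was the member with the highest log2 fold change of the class, 0.16 (0.08 with correction), and its groups overlapped (14.4 and 16.5 against 18.2, 15.9 and 17.9 CPM). The remaining members differed little, with the secreted factor MANF at -0.07 (-0.05 with correction), the co-chaperone DNAJC3 at -0.02 (-0.10) and the oxidase ERO1A at 0.01 (-0.08). HYOU1, a large ER chaperone (log2 fold change -0.28, adjusted p = 0.24, and -0.20 with correction), and CANX, calnexin (-0.14, adjusted p = 0.503, and -0.21), each have a second row for a numbered copy of the gene. For CANX that copy held 1977 to 2329 reads beside 2419 to 3317 in the main row, so its split level is uncertain.

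The 4 genes of ER-associated degradation did not pass in either fit (edgeR; 1 lower at an unadjusted p under 0.05, 0 with correction, 0 by DESeq2). SYVN1, the ubiquitin ligase HRD1, was at 48.2 and 39.0 CPM against 38.2, 39.5 and 34.3 CPM, which gave -0.23 on the log2 scale (adjusted p = 0.205) and -0.13 with correction. HERPUD1, a membrane component of the same complex, gave -0.08 (-0.09 with correction), and EDEM1, which acts on misfolded glycoproteins, -0.03 (-0.07). SEL1L, the partner of HRD1, gave 0.02, which turned to -0.07 with correction. The groups overlapped in all 4. The median was -0.05 and -0.08 with correction, beside -0.14 and -0.18 for the 15 chaperones and folding enzymes. With correction and without scrambled replicate 1 the order turned, at -0.13 for degradation and -0.12 for chaperones and folding enzymes, and the difference between these lists was not tested.

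Taking chaperones and degradation genes as 1 class of 19, 3 fell and none rose in each fit (edgeR; 8 lower and 0 higher at an unadjusted p under 0.05, 9 and 0 with correction, 4 and 0 called by DESeq2). The median log2 fold change went from -0.14 to -0.17 with GC correction, and was -0.13 with correction and without scrambled replicate 1. After correction 18 of 19 were below 0, and 11 of 19 had all H3F3A siRNA libraries below both scrambled ones (14.8% of all genes), and 9 before it (17.1%). The 3 called of 19 stand beside 2.69% of all genes, and 1.23% with correction. At an unadjusted p under 0.05 in edgeR the share of all genes lower was 10.9%, and 6.80% with correction. By DESeq2 it was 4.41% of 10746 genes. The correction moved the amino acid class toward 0 and the ER class away from it, so the gap between their medians depended on how GC content was treated.

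Levels by library show the same. Without correction the median deviation from the mean library, on the log2 scale, of the amino acid genes was 0.11 and 0.06 in the scrambled libraries and -0.03, -0.05 and -0.08 with H3F3A siRNA. With correction it was 0.07 and 0.06 against -0.01, -0.04 and -0.06. For the ER class the corrected values were 0.12 and 0.07 against -0.08, -0.08 and -0.03. In both classes the groups did not overlap. Nor did they for the sensors, with corrected values of 0.121 and 0.0163 against -0.0907, -0.0416 and 0.00413. Without correction the sensors were at 0.0416 and 0.0162 against -0.0535, -0.0274 and 0.0155, a very narrow margin. For factors and effectors the deviation of 0.13 in scrambled replicate 1 stood against -0.02 in scrambled replicate 3, and after correction all 5 libraries were between -0.01 and 0.02.

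**Figure D4:**
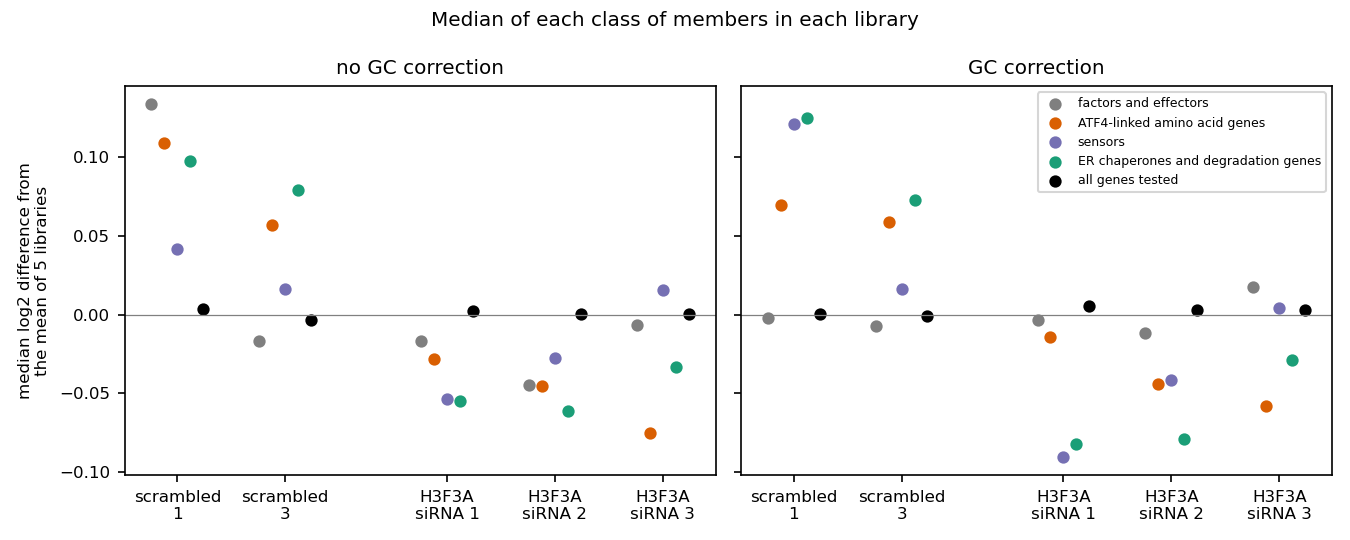
Median log2 deviation of each class from the mean of the 5 libraries, without and with GC correction; each point is the median over the genes of 1 class in 1 library. The amino acid and ER classes lie higher in both scrambled libraries than in the 3 H3F3A siRNA libraries. So do the sensors, by a narrow margin, whereas the corrected factors and effectors stay near 0.

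The 4 sensor genes did not pass the test (edgeR; 0 lower at an unadjusted p under 0.05, 1 with correction, 0 by DESeq2). XBP1, whose messenger IRE1 splices, was at 111.5 and 103.4 CPM against 99.9, 99.0 and 99.4 CPM, below both scrambled libraries in all 3 (log2 fold change -0.11, adjusted p = 0.479, and -0.19, adjusted p = 0.142, with correction). Gene-level counts do not separate spliced from unspliced XBP1. ATF6 was at 69.2 and 73.0 CPM against 67.8, 73.7 and 71.5 CPM, with a log2 fold change of -0.00 and overlapping groups. With correction it was -0.08 (adjusted p = 0.637), and the groups were apart. For ERN1 (IRE1) the log2 fold change was -0.18 (adjusted p = 0.42, and -0.16 with correction), for EIF2AK3 (PERK) it was 0.06 (adjusted p = 0.803, and 0.01), and both overlapped.

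Single libraries decided several of these calls. Without H3F3A siRNA replicate 1 no member passed (edgeR adjusted p = 0.0821 for SLC7A5, 0.12 for PDIA6, 0.166 for SDF2L1 and 0.167 for PDIA4), while the share of all genes called lower fell to 0.0575%. Without H3F3A siRNA replicate 2 SLC7A5 and SDF2L1 passed, with 0.977% of all genes lower. Without H3F3A siRNA replicate 3 PDIA4 was lost (adjusted p = 0.121), with 1.62% lower. Without scrambled replicate 1 SLC7A5 (adjusted p = 0.0105) and PDIA6 (adjusted p = 0.0276) passed, and 0.501% of all genes were lower. Without scrambled replicate 3 there were 14 members lower, where 10.6% of all genes were. The direction of SLC7A5, PDIA6, PDIA4, SDF2L1 and HSPA5 was the same in each of these 5 fits. Over the 15 alternatives tried, SLC7A5 passed in 14, PDIA6 in 13, SDF2L1 in 11, PDIA4 in 9 and HSPA5 in 3.

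A further 91 genes of the same pathways, outside the 50, were read from the same fits, and 83 were tested. They too were chosen with earlier results of these data known, so their shares are descriptive. The uncorrected fit called 5 lower and none higher (edgeR; 1 higher at an unadjusted p under 0.05, 0 by DESeq2), where 2.69% of all genes were lower. The corrected fit called 4 lower and none higher (1 higher at an unadjusted p under 0.05), against 1.23% lower. At an unadjusted p under 0.05 in edgeR, 11 of the 83 were lower, near the 10.9% of all genes. With correction 13 of the 83 were lower, against 6.80%. All 3 H3F3A siRNA libraries were below both scrambled ones for 20 of the 83, against 17.1% of all genes. With correction this held for 26, against 14.8%. Below 0 lay 54.2% of the 83, and 67.5% with correction, against 48.6% and 48.0% of all genes. The median log2 fold change was -0.02 (-0.04 with correction), nearer to that of all genes than that of the members. INHBE, which encodes the inhibin beta E chain and responds to ER stress, was at 13.3 and 12.5 CPM against 8.64, 7.55 and 7.15 CPM. The groups were widely separated. It fell 1.66-fold (adjusted p = 0.00133), with a log2 fold change of -0.68 after correction (adjusted p = 0.00190), and passed in all 15 alternatives, also with correction and without scrambled replicate 1 (adjusted p = 0.0225).

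VEGFA, the angiogenic growth factor, was at 48.4 and 44.0 CPM against 36.2, 35.3 and 36.1 CPM and fell 1.29-fold (adjusted p = 0.0140, and 0.0152 with correction), but missed the threshold with correction and without scrambled replicate 1 (adjusted p = 0.156). VEGFA and P4HB also missed it in the uncorrected fit without scrambled replicate 1 (adjusted p = 0.104 and 0.134), without H3F3A siRNA replicate 1 (0.131 and 0.123) and without H3F3A siRNA replicate 2 (0.0853 and 0.0534). GDF15, a stress-induced hormone, was at 91.2 and 67.8 CPM against 62.1, 54.3 and 57.5 CPM and fell 1.37-fold (adjusted p = 0.0160), but missed the threshold with correction (0.0930). The proline synthesis enzyme gene PYCR1 fell without correction (log2 fold change -0.31, adjusted p = 0.0391) and missed with it (adjusted p = 0.262). Without scrambled replicate 1 the uncorrected adjusted p was 0.285 for GDF15 and 0.411 for PYCR1, and 0.67 and 0.744 with correction. Without H3F3A siRNA replicates 1 or 2 both missed the threshold (0.128 and 0.0798 for GDF15, 0.224 and 0.161 for PYCR1), and PYCR1 also without H3F3A siRNA replicate 3 (0.0835). Among further ER folding and export genes, P4HB, the classical protein disulfide isomerase, was at 1601 and 1342 CPM against 1132, 1098 and 1109 CPM. P4HB fell 1.32-fold (adjusted p = 0.00833, and 0.0154 with correction), but missed the threshold with correction and without scrambled replicate 1 (adjusted p = 0.249). SPCS3, a signal peptidase subunit, passed with correction (log2 fold change -0.23, adjusted p = 0.0269) and not without it (-0.12, adjusted p = 0.461), nor with correction and without scrambled replicate 1 (adjusted p = 0.248). None of the 10 eIF2alpha kinase and eIF2B genes, 13 further tRNA synthetase genes and 15 further tested ER degradation and sensor genes passed in either edgeR fit (2 lower and 1 higher at an unadjusted p under 0.05 without correction, and 1 lower by DESeq2).

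**Figure D5:**
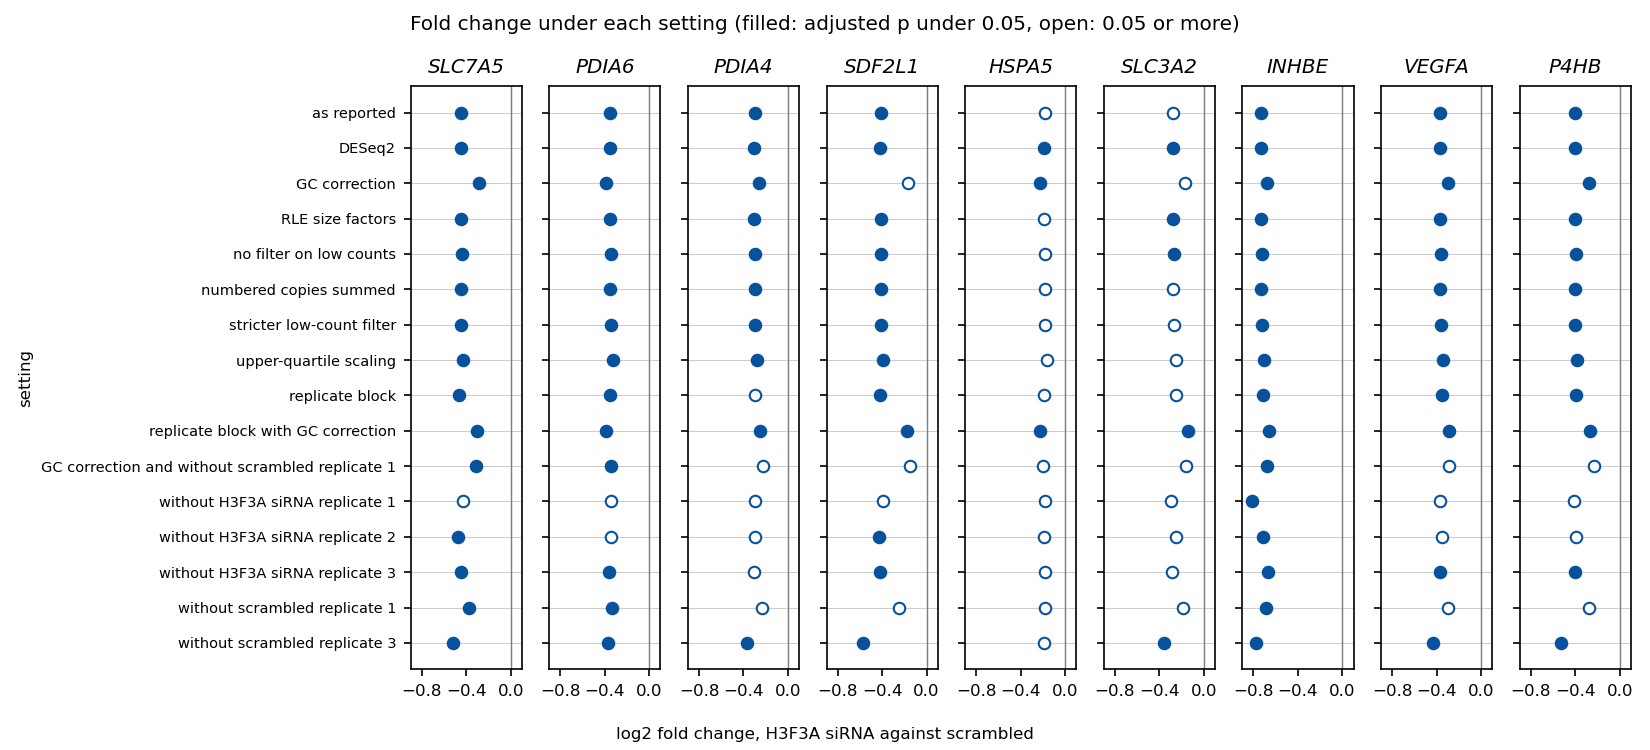
Log2 fold change of 6 members and 3 further pathway genes under the reported fit and 15 alternatives, 1 row per setting and 1 panel per gene; filled points have an adjusted p under 0.05. All points lie below 0, INHBE is filled throughout, SLC7A5 is open without H3F3A siRNA replicate 1, and HSPA5 is filled in 3 alternatives.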

How the data were processed

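RNA was poly(A)-selected and the library kit used random priming, per the labels' protocols. The deposited files hold the authors' raw read counts per gene with 3 count columns, unstranded and for each strand, as STAR writes them; STAR 2.5 is named in the submitters' processing notes. About 50% of strand-specific counts fell on each strand, so the unstranded column was used and the other 2 were not. The 4 summary lines were left out. The test was that of edgeR 4.0.16, run under R 4.3.3 (TMM, filterByExpr with a minimum count of 10, robust quasi-likelihood test, Benjamini-Hochberg over all 15859 genes). For GC correction each library's loess trend (span 0.5) of log2 CPM over the GC content of the longest GENCODE transcript, known for 91.6% of genes tested, was removed through offsets. DESeq2 1.42.0 and other settings were alternatives. The scripts were tested on simulated data. CPM are edgeR's, over TMM-scaled library sizes.

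The members and lists were chosen with earlier results of these data known. Named genes were H3-3A, H3-3B, every member or further pathway gene called with or without GC correction, ATF4, DDIT3, ATF6, ERN1, EIF2AK3, XBP1 and HSPA5, and the 3 members of each role with the largest absolute log2 fold change; ASNS, SESN2, SLC7A1, SLC7A11, CARS1, PDIA3, DNAJB11, HSP90B1, CALR, CRELD2, DNAJB9, HYOU1, CANX, VLDLR, ATF5 and DDIT4 were added after their values were seen. Also named outside the rule, with their values seen, were the members ATF3, PPP1R15A, MTHFD2, PSPH, AARS1, MANF, DNAJC3, ERO1A and SEL1L. Promoter windows were printed for members called in both fits and for HSPA5.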

Additional observations from a re-analysis of the deposited data

How the results depend on the processing

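Of the single-gene values, 416 kept direction and side of the threshold, 36 lost the call, 20 gained it and 21 changed sign, over 33 named genes and 15 alternatives. Over all genes, 427 were lower and 80 higher. The lower count was 195 with GC correction, 271 with a stricter filter on low counts, 57 with GC correction and without scrambled replicate 1, and 9 to 1737 when 1 library was left out. The higher count was 153 with no filter, 47 with the stricter filter, 18 with GC correction and without scrambled replicate 1, and 6 to 744 with 1 library left out. The members called lower were 4, against 2 with GC correction and without scrambled replicate 1, and 0 to 14 with 1 library left out.

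The labels share replicate numbers 1 and 3 between groups but do not say that a number marks a shared culture. Same-numbered libraries correlated at 0.112 and 0.0487 in their deviations. These values cannot decide whether same-numbered libraries shared a culture, because the deviations of the scrambled libraries mirror each other. H3F3A siRNA replicate 3 gave 0.0487 with scrambled replicate 3 and -0.0487 with scrambled replicate 1. A replicate block gave 476 genes lower, 98 higher and 4 members lower, among them CEBPB (adjusted p = 0.033) in place of PDIA4 (adjusted p = 0.0542). The block also lost PYCR1 (adjusted p = 0.0725), and changed no other call among the named genes. With the replicate block and GC correction there were 776 lower, 489 higher, 13 members lower and 1 higher, ATF5. In both block fits H3F3A siRNA replicate 2 has no scrambled library of its number. It therefore adds nothing to the comparison, and little is left from which to estimate the spread.

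The median log2 fold change of the amino acid genes, -0.112 as reported, was -0.0683 with GC correction and -0.154 to -0.0961 with 1 library left out. That of the ER class, -0.136, was -0.17 with GC correction, -0.163 with the replicate block and GC correction, -0.121 with numbered copies summed (chosen after seeing the data), -0.114 with upper-quartile scaling and -0.154 to -0.12 with 1 library left out.

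Some values near 0 changed sign. H3-3B gave 0.00722 with GC correction, 0.0226 with that and without scrambled replicate 1, 0.00305 with no filter, 0.00104 with the stricter filter, 0.0195 with upper-quartile scaling, 0.0212 with the block, 0.0314 with block and GC correction, and -0.0356 to 0.0256 with 1 library left out. ATF4 gave 0.0437 with GC correction, 0.00142 with that and without scrambled replicate 1, and 0.0726 with block and GC correction. ATF6 gave 0.00519 with no filter, 0.00386 with the stricter filter, 0.022 with upper-quartile scaling, and -0.0417 to 0.0372 with 1 library left out. EIF2AK3 gave -0.016 with GC correction and without scrambled replicate 1. PHGDH gave 0.0719 there and -0.259 to 0.0685 with 1 library left out, and EDEM1 -0.114 to 0.0648. The causes were not tested. With 2 scrambled libraries, their spread limits what the test can call.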
